A study of Mus musculus with 6 samples.

Results

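Collagen genes were described in the skin of mice given imiquimod (MOD) and of control mice (CON). Collagens were the rows of the expression table whose gene name is Col, a number, a and a number, without Col17a1, the transmembrane collagen of hemidesmosomes. This gave 43 of the 57010 genes in the table, of which 11 were fibrillar collagens, 9 were collagens of the basement membrane and its zone, and 23 belonged to other types. The rule uses gene names and no measured value. The series held 6 bulk RNA sequencing libraries of skin, 3 MOD and 3 CON. The MOD mice had 62.5 mg of imiquimod, a Toll-like receptor 7 agonist that causes psoriasis-like inflammation, applied daily for 6 days to the shaved back according to the series' design text, and the CON mice had none. The same text has mice of the study injected with atropine and zoledronic acid before blood was taken, with no group excepted. The labels call the CON libraries wild type, and they do not give strain, sex or age. They also leave unsaid whether each library came from its own mouse, and the p-values therefore rest on a spread between libraries that may be partly technical.

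Collagens are proteins of 3 chains wound into a triple helix, and each chain has its own gene. Fibrillar collagens assemble into the cross-banded fibrils that give dermis its strength, type IV collagen forms the sheet-like network of basement membranes, and the remaining types decorate fibrils, form beaded filaments or sit in cell membranes. In skin, dermal fibroblasts make most of the fibrillar chains, while keratinocytes, vessels, hair follicles, nerve and muscle add basement membrane and minor types.

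Values are TPM, a measure of transcript abundance that is divided by gene length and scaled to the same total in every library, so that levels can be set side by side between genes. Differences are MOD minus CON on the log2(TPM + 1) scale from limma over all tested genes, with Benjamini-Hochberg adjusted p-values and a threshold of 0.05. "Rose" and "fell" refer to genes past this threshold. Of the 43 collagen genes, 29 reached 1 TPM in 3 or more of the 6 libraries and were tested. In bulk skin, a change in the number of cells that make a collagen and a change in RNA per cell cannot be told apart.

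Most collagen genes did not pass the test in imiquimod-treated skin, and a few chains changed in either direction. Of the 29 tested genes, 3 rose (Col3a1, Col8a1 and Col13a1), 3 fell (Col11a1, Col4a5 and Col8a2) and 23 did not pass the threshold. Among all 15323 tested genes, 12.5% were called higher and 36.1% lower, 48.6% in all. Of the tested collagens 10.3% were higher and 10.3% lower, a share below that of all tested genes for the lower calls. Among the 29 tested collagens, the groups did not overlap for 4 higher and 3 lower in MOD. Of all tested genes 15.5% and 44% did so, 59.5% in either direction. Among the collagens not tested, all of them low, Col4a3, Col4a4, Col6a5 and Col22a1 lay higher in MOD with no overlap. Col2a1 and Col9a3 lay lower in MOD with no overlap. The median difference was -0.03 for the 29 collagens and -0.31 for all tested genes. By class, 1 of 10 tested fibrillar genes rose and 1 fell, 0 of 6 tested basement membrane genes rose and 1 fell, and 2 of 13 tested genes of other types rose and 1 fell.

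Some libraries stood apart. The gene H2-Ea, of the MHC class II molecule E, was listed above 0 in CON 1 and CON 3 and at 0 in CON 2 and all MOD libraries, so a fit with a term for this split compares MOD with CON 2, and CON 1 and CON 3 add only to the estimate of spread. Without the term, what goes with this split and the treatment cannot be fully told apart, while the fit with the term has CON 2 as its only reference. In that fit 4.35% of all tested genes were higher and 17.9% lower, 22.3% in all, and of the collagens only Col8a1 was higher and only Col11a1 lower. Within MOD, library MOD 3 had the highest value for 16 of the 18 collagen genes that averaged 10 TPM or more in either group, while it was highest for 46.6% of all tested genes. The ratio of MOD 3 to the mean of MOD 1 and MOD 2 had a median of 1.82 over these 18 genes. Within CON, CON 2 was highest for 14 of the 18, and for 44.3% of all tested genes. The summed TPM of the 14 fibroblast markers was 3116, 3279.7 and 3224 in MOD 1, MOD 2 and MOD 3, and Vim alone held 1438 to 1496 TPM of it. Single markers differed within MOD. Twist2, a transcription factor of dermal fibroblasts, stood at 17.8, 18 and 50.2 TPM. Thy1, a surface protein of fibroblasts, stood at 150, 166 and 279 TPM. Both were highest in MOD 3, as were Pdgfrb, Prrx1, Fbln1, Fbln2 and S100a4. The other markers, Pdgfra, Dpp4, Pi16, Fap, Clec3b, Mfap5 and Vim, were lowest in MOD 3, with Pi16 at 100, 92.9 and 64.6 TPM. The part of these markers in the collagen values of MOD 3 was not tested. In CON the sum of the 14 markers was 1498, 2435 and 1509 in CON 1, CON 2 and CON 3, highest in the library with the most collagen.

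The 43 genes together held 0.432, 0.416 and 0.752% of all TPM in MOD 1, MOD 2 and MOD 3, and 0.403, 0.545 and 0.399% in CON 1, CON 2 and CON 3. The groups overlapped, and MOD 3 alone lay above every CON library. Fibrillar collagens summed to 3266, 3115 and 5730.2 TPM in MOD and to 3044, 3917 and 2874 TPM in CON. They made up 74.9 to 76.2% of collagen TPM in MOD and 71.8 to 75.5% in CON, and the group ranges overlapped. Basement membrane collagens summed to 472 ± 112 TPM in MOD and 419.8 ± 59.8 TPM in CON, and other types to 825 ± 318 and 793 ± 227 TPM (SD, n = 3 per group).

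**Figure D1:**
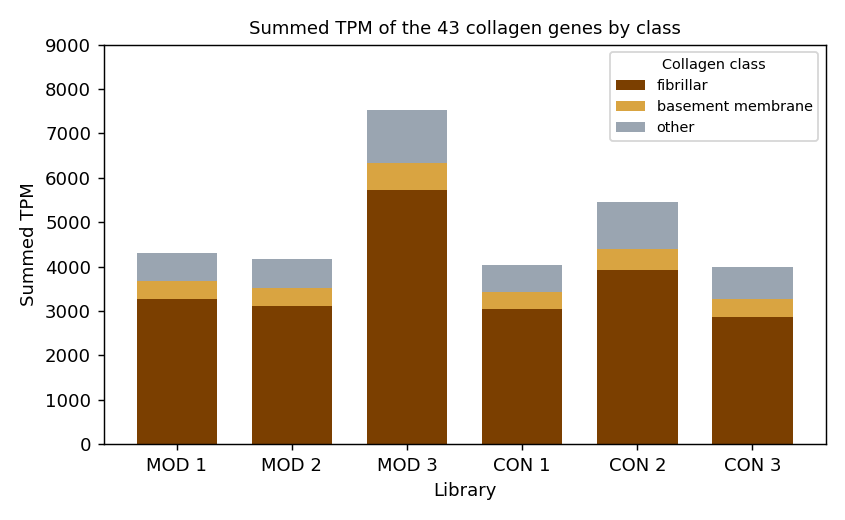
Summed TPM of the 43 collagen genes in each library, MOD to the left of CON, stacked by class. Fibrillar chains make up most of each bar, and the bar of MOD 3 (7524 TPM) is the tallest, with the other 5 bars between 3988 and 5453 TPM.

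Promoters of Col3a1, Col11a1, Col8a1 and Col8a2 are shown. Col3a1 and Col11a1 moved in opposite directions among fibrillar chains, and Col8a1 and Col8a2 did so as chains of the same collagen type. The sequences are from RefSeq on build GRCm38.p6 and hold up to 250 bases before the annotated gene start, 5′ to 3′ on the gene's strand. Capitals mark matches on either strand to CCAAT, the core of the CCAAT box, to GGGCGG, the core of the GC box, to TATAA, found in TATA boxes, and to CAGAC, found in Smad-binding elements. The windows lie at chr1:45311288-45311537 (plus strand) for Col3a1, chr3:114030290-114030539 (plus strand) for Col11a1, chr16:57754738-57754987 (minus strand) for Col8a1 and chr4:126286544-126286792 (plus strand) for Col8a2.
Col3a1: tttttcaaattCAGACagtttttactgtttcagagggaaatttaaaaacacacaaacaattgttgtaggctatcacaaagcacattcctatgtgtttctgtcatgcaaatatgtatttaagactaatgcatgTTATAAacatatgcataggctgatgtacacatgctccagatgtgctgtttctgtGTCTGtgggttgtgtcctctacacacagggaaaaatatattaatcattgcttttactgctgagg
Col11a1: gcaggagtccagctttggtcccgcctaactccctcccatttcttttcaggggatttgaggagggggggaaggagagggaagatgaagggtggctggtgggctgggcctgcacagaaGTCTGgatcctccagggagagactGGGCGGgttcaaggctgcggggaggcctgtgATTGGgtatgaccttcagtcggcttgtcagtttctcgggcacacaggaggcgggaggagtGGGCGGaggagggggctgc
Col8a1: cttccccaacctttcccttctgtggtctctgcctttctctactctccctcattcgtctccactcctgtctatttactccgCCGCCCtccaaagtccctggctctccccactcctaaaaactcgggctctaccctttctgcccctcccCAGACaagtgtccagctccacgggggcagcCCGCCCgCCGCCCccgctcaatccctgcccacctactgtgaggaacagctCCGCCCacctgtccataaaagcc
Col8a2: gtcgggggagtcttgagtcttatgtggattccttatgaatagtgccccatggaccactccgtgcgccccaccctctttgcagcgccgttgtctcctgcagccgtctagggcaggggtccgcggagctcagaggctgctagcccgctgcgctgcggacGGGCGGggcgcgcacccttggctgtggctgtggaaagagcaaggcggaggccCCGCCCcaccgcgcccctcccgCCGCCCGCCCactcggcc
The Col3a1 window was poor in G and C (35.2%, against 62.4% for Col11a1, 60.8% for Col8a1 and 69.9% for Col8a2). It held no CCAAT and no GGGCGG, 2 CAGAC matches and 1 TTATAA stretch, which matches TATAA on both strands. In the Col8a2 window, 2 GGGCGG matches on the minus strand overlap and make the longest capital run. RefSeq windows were found for 34 of the 43 genes, and those without one were Col1a1, Col2a1, Col5a2, Col4a3, Col9a3, Col12a1, Col14a1, Col22a1 and Col26a1. GGGCGG was present in 61.8% of these (21 of 34) and in 32.7% of all promoter windows in the table, CCAAT in 32.4 and 33.8%, TATAA in 17.6 and 22.8%, and CAGAC in 41.2 and 42.2%. A match is a description of letters, not a site or a cause.

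Among fibrillar collagens, Col3a1 (ENSMUSG00000026043), which encodes type III collagen, a partner of type I that is prominent in young and healing dermis, was the most abundant collagen transcript in every library. It stood at 1993, 1757 and 2499.6 TPM in MOD 1, MOD 2 and MOD 3, and at 1198, 1336 and 1078 TPM in CON 1, CON 2 and CON 3. Every MOD library lay above every CON library. Col3a1 rose 1.73-fold in mean TPM, or by 0.78 on the log2 scale (SE 0.18, limma adjusted p = 0.013). The H2-Ea term took the difference to 0.63 and ended the call (limma adjusted p = 0.12), as did leaving out the filter on low values (limma adjusted p = 0.053).

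Col1a1 and Col1a2 encode the chains of type I collagen, the bulk of dermal fibrils, and followed each other rather than Col3a1. Col1a1 stood at 505, 538 and 1522 TPM in MOD and at 744, 1154 and 804 TPM in CON. Col1a2 stood at 527, 563 and 1353 TPM in MOD and at 913, 1146 and 791 TPM in CON. In MOD 1 and MOD 2 both genes lay below all CON libraries, and in MOD 3 both lay above them. Neither passed the threshold (log2 difference -0.25 for Col1a1 with limma adjusted p = 0.66, and -0.35 for Col1a2 with limma adjusted p = 0.47). Without MOD 3 both were lower in MOD, by a log2 difference of -0.76 (limma adjusted p = 0.043) for Col1a1 and -0.78 (limma adjusted p = 0.028) for Col1a2. In that fit 10.1% of all tested genes were higher and 31% lower, 41% in all, and of the tested collagens 3 were higher and 8 lower. The 8 were Col1a1, Col1a2, Col11a1, Col24a1, Col4a5, Col8a2, Col16a1 and Col23a1.

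The balance of type III to type I transcripts does not depend on how libraries are scaled. The ratio of Col3a1 to Col1a1 was 3.95, 3.27 and 1.64 in MOD 1, MOD 2 and MOD 3, and 1.61, 1.16 and 1.34 in CON 1, CON 2 and CON 3. The groups did not overlap, although MOD 3 came close to CON 1. The ratio of Col3a1 to Col1a2 was 3.78, 3.12 and 1.85 in MOD, and 1.31, 1.17 and 1.36 in CON. A two-sided exact permutation test gave p = 0.1 for each of these ratios, the smallest that 3 against 3 libraries allow, and an adjusted p of 0.27 over the 8 ratios compared. The pairs were chosen after their values were seen.

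Ratios between other chains that share a molecule overlapped between the groups. Col1a1 to Col1a2 was 0.957, 0.955 and 1.12 in MOD and 0.815, 1.01 and 1.02 in CON, close to 1 in all libraries. Col6a1 to Col6a2 was 0.864 to 0.933 in MOD and 0.927 to 1.03 in CON, and Col4a1 to Col4a2 was 1.44 to 1.64 in MOD and 1.56 to 1.89 in CON. The exact permutation p was 0.6 for the type I pair and 0.3 for each of the other pairs (adjusted p = 0.6, 0.46 and 0.46). The ratio of Col5a1 to Col5a2 (1.23 to 1.75 in MOD and 0.873 to 1.62 in CON) and of Col6a3 to Col6a1 (0.966 to 1.02 in MOD and 0.781 to 1.04 in CON) overlapped as well, each with an exact permutation p of 0.4 and an adjusted p of 0.46.

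**Figure D2:**
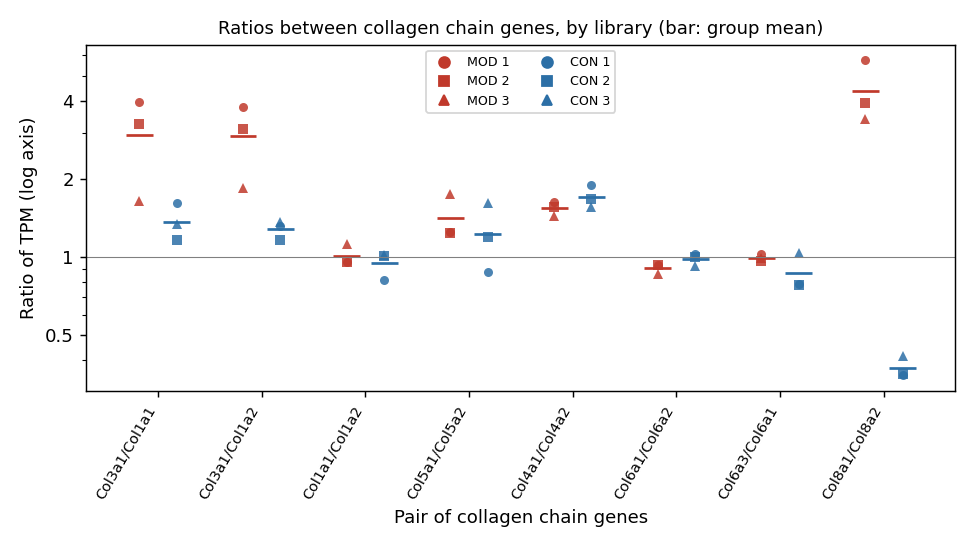
Ratios of TPM between pairs of collagen chain genes on a log axis, each point a library, MOD to the left of CON for each pair, bars at group means. The groups separate for Col3a1/Col1a1, Col3a1/Col1a2 and Col8a1/Col8a2, whose mean ratio was 4.34 in MOD and 0.374 in CON, and overlap for the other 5 pairs.

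Type V collagen, whose chains nucleate type I fibrils and limit their width, did not pass in TPM. Col5a1 stood at 106, 107 and 192 TPM in MOD and at 59.1, 105 and 83.1 TPM in CON, where CON 2 lay just under the lowest MOD library. Col5a2 stood at 85.3, 86.9 and 109.6 TPM in MOD and at 67.7, 87.2 and 51.4 TPM in CON, so CON 2 lay within the MOD range. Col5a3 stood at 47.3, 58.1 and 43.7 TPM in MOD and at 32.5, 43.4 and 44.1 TPM in CON, and the groups overlapped. The log2 differences were 0.69, 0.47 and 0.31 (limma adjusted p = 0.095, 0.11 and 0.18). All 3 passed under median-of-ratios scaling (limma adjusted p = 0.024, 0.014 and 0.022) and under quantile normalization (limma adjusted p = 0.049, 0.033 and 0.035), and Col5a2 also without CON 2 (limma adjusted p = 0.038).

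Col11a1 (ENSMUSG00000027966) had the largest change of any tested collagen. It encodes a chain of type XI collagen, a close relative of type V best known from cartilage. It stood at 0.70, 0.77 and 2.49 TPM in MOD 1, MOD 2 and MOD 3, and at 25.6, 40.9 and 16.6 TPM in CON 1, CON 2 and CON 3. Every MOD library lay far below every CON library. Mean TPM was 1.32 ± 1.01 in MOD and 27.7 ± 12.3 in CON (SD, n = 3 per group), so the CON mean was 21.0 times the MOD mean. Col11a1 fell by 3.62 on the log2 scale (SE 0.40, limma adjusted p = 0.0016), and was lower under every alternative tried, with limma adjusted p up to 0.011. It met the filter on low values through CON. Its sister chain Col11a2 was low in both groups, at 0.27 to 1.67 TPM in MOD and 0.36 to 1.12 TPM in CON.

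Hair follicle markers were lower in the same libraries as Col11a1, and chondrocyte markers were mixed. All 8 tested follicle markers fell, where 36.1% of all tested genes did so. The summed TPM of these markers was 7.05 to 20.8 in MOD and 2591 to 11604 in CON. Among them Krt71, Krt25, Krt27, Krt31, Krt35 and Shh met the filter on low values through CON. Among 7 chondrocyte markers, Acan, the large cartilage proteoglycan, stood at 0.02, 0.20 and 0.69 TPM in MOD and at 4.87, 12.2 and 6.74 TPM in CON. Sox9, a transcription factor of cartilage and follicle, stood at 4.28 to 5.40 TPM in MOD and 11.1 to 16.5 TPM in CON, and both genes fell. Acan met the filter on low values through CON, and the other 5 chondrocyte markers did not meet it. Cnmd, chondromodulin, stood at 0.65, 2.72 and 0.99 TPM in MOD and at 0.60, 0.57 and 0.05 TPM in CON, with MOD higher and no overlap, and Comp, a cartilage matrix protein, at 0.71 to 0.82 TPM in MOD and 0.56 to 0.79 TPM in CON. Hapln1 stood at 0.04 to 0.09 TPM in MOD and 0.16 to 0.28 TPM in CON, with MOD lower and no overlap. Matn3 was no higher than 0.07 TPM, and Matn1 was listed at 0 in all 6 libraries. Col2a1, the main collagen of cartilage, is no part of that list. It stood at 0 to 0.08 TPM in MOD and 0.13 to 0.14 TPM in CON, also with MOD lower and no overlap. The part of these cells in the fall of Col11a1 was not tested.

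The minor fibrillar chains were low. Col24a1 stood at 0.04, 0.28 and 1.13 TPM in MOD and at 0.68, 1.78 and 1.24 TPM in CON, and Col27a1 at 1.98 to 4.67 TPM in MOD and 2.36 to 3.90 TPM in CON. Neither passed the threshold (log2 difference -0.63 and -0.18), but without MOD 3 Col24a1 was lower in MOD (limma adjusted p = 0.043). The sign for Col27a1 turned under median-of-ratios scaling and quantile normalization.

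**Figure D3:**
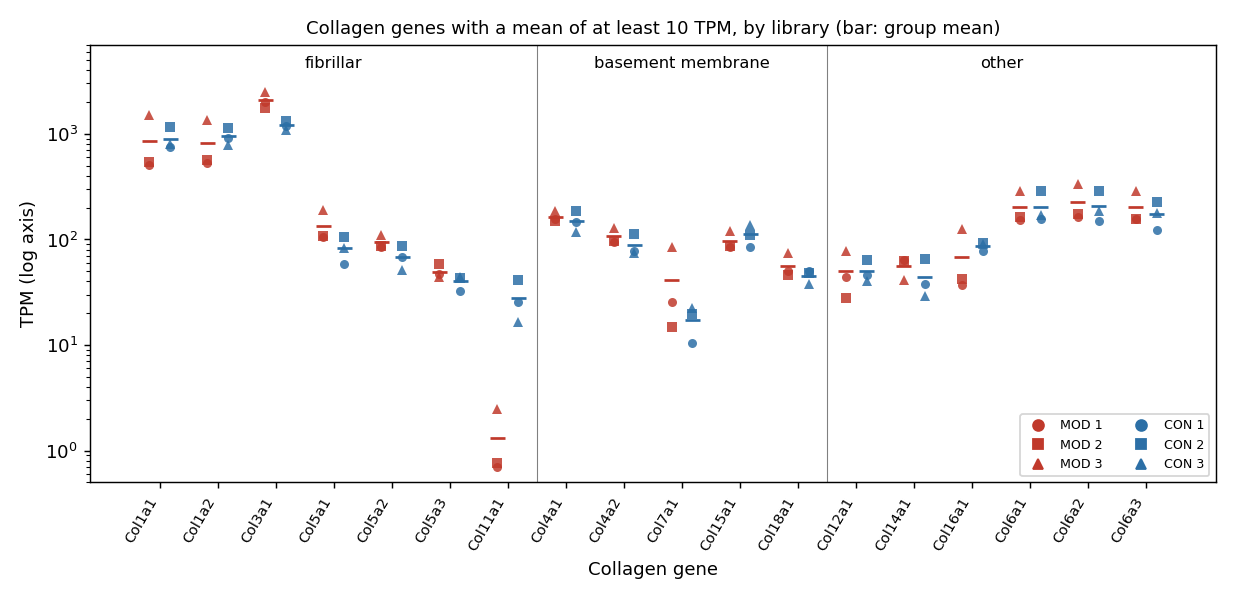
TPM on a log axis of the 18 collagen genes that averaged 10 TPM or more in either group, by class, each point a library, MOD to the left of CON for each gene, bars at group means. Col11a1 is the gene whose groups lie farthest apart (0.70 to 2.49 TPM in MOD, 16.6 to 40.9 TPM in CON), and the MOD 3 triangle is the top MOD point for 16 of the 18 genes.

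Among basement membrane collagens, the common type IV chains Col4a1 and Col4a2, which form the network under epithelia and around vessels, did not pass the test in TPM. Col4a1 stood at 156, 151 and 187 TPM in MOD and at 145, 187 and 117 TPM in CON. Col4a2 stood at 95.3, 96.2 and 129.5 TPM in MOD and at 76.9, 112 and 74.9 TPM in CON. CON 2 lay above MOD 1 and MOD 2 for both genes, and the log2 differences were 0.15 and 0.29 (limma adjusted p = 0.54 and 0.28). The genes face opposite directions on chromosome 8, with their RefSeq starts 21 bases apart on GRCm38.p6. Col4a2 passed as higher under median-of-ratios scaling (limma adjusted p = 0.026), while both differences were negative with the H2-Ea term (-0.19 for Col4a1 and -0.08 for Col4a2).

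Col4a5 (ENSMUSG00000031274) encodes a type IV chain of restricted distribution that is part of the epidermal basement membrane. It stood at 1.98, 2.23 and 3.65 TPM in MOD and at 6.36, 5.67 and 4.15 TPM in CON. The groups did not overlap, and Col4a5 fell (log2 difference -0.83, SE 0.23, limma adjusted p = 0.025). The call was lost under 9 of the 15 alternatives in which Col4a5 was tested, among them median-of-ratios scaling and quantile normalization (limma adjusted p = 0.085 and 0.055), the H2-Ea term (limma adjusted p = 0.10) and leaving out MOD 1, MOD 2, CON 1 or CON 2 (limma adjusted p = 0.088, 0.080, 0.077 and 0.063). Its partner Col4a6 stood at 0.37 to 0.61 TPM in MOD and 0.18 to 2.67 TPM in CON. The remaining restricted chains Col4a3 and Col4a4 stood at 0.61 to 0.87 and 0.94 to 1.30 TPM in MOD and at 0.25 to 0.50 and 0.60 to 0.92 TPM in CON. These 3 genes did not meet the filter.

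Col7a1 encodes type VII collagen, whose anchoring fibrils tie the epidermal basement membrane to the dermis. It stood at 25.6, 14.9 and 84.8 TPM in MOD and at 10.4, 19.5 and 22.4 TPM in CON. MOD 3 was 4.18 times the mean of MOD 1 and MOD 2, the largest such ratio among the 18 abundant collagens, and MOD 2 lay within the CON range. The log2 difference of 0.91 (SE 0.61) did not pass (limma adjusted p = 0.25) and was 0.22 on leaving out MOD 3. The multiplexins Col15a1 and Col18a1, proteoglycan-like collagens of vessel and epithelial basement membranes, did not pass either. Col15a1 stood at 84.2, 86.7 and 120.3 TPM in MOD and at 85.3, 111 and 138 TPM in CON. Col18a1, the source of the endostatin fragment, stood at 49.7, 45.7 and 73.9 TPM in MOD and at 50.3, 48.3 and 37.8 TPM in CON. Endothelial markers were higher in the same MOD libraries, with 6 of 7 past the threshold, where 12.5% of all tested genes were higher. The summed TPM of these markers was 301 to 376 in MOD and 88.8 to 119 in CON. Their part in the values of Col15a1 and Col18a1 was not tested.

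Among other collagens, the type VI chains, which form beaded filaments around cells and fibres, tracked each other closely across libraries. Col6a1 stood at 153, 163 and 290.2 TPM in MOD and at 155, 289 and 171 TPM in CON. Col6a2 stood at 164, 175 and 336 TPM in MOD and at 151, 289 and 184 TPM in CON. Col6a3 stood at 157, 157 and 289 TPM in MOD and at 122, 226 and 177 TPM in CON. MOD 3 and CON 2 were the highest libraries of their groups for all 3 genes, and the log2 differences were -0.03, 0.09 and 0.18 (limma adjusted p = 0.95, 0.85 and 0.66). The signs turned with the setting, to 0.33 for Col6a1 under median-of-ratios scaling and to -0.44 for Col6a2 and -0.23 for Col6a3 with the H2-Ea term. Col6a6 stood at 2.24 to 3.36 TPM in MOD and 2.54 to 3.93 TPM in CON, and Col6a5, which did not meet the filter, at 0.80 to 1.89 TPM in MOD and 0.22 to 0.37 TPM in CON.

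The fibril-associated collagens sit on the surface of fibrils and link them to their surroundings. Col12a1 stood at 43.8, 27.6 and 78.3 TPM in MOD and at 46.3, 63.4 and 40.6 TPM in CON. Col14a1 stood at 63.3, 62.8 and 41.7 TPM in MOD and at 37.8, 65.8 and 29.3 TPM in CON. Col16a1 stood at 37.1, 42.0 and 125.7 TPM in MOD and at 77.5, 92.2 and 91.5 TPM in CON. Col14a1 and Col5a3 were the 2 abundant collagens with their highest MOD value outside MOD 3. None of these 3 genes passed (log2 difference -0.11, 0.39 and -0.57), but without MOD 3 Col16a1 was lower in MOD (log2 difference -1.12, limma adjusted p = 0.0067).

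The chains of type VIII collagen, a short-chain network former of vessel walls and of the corneal endothelium, moved in opposite directions. Col8a1 (ENSMUSG00000068196) stood at 3.09, 3.32 and 2.96 TPM in MOD and at 1.59, 1.01 and 1.06 TPM in CON. Col8a2 (ENSMUSG00000056174) stood at 0.54, 0.85 and 0.87 TPM in MOD and at 4.53, 2.85 and 2.54 TPM in CON. Neither gene's groups overlapped. Col8a1 rose 2.56-fold in mean TPM (log2 difference 0.90, SE 0.17, limma adjusted p = 0.0065) and kept its call with the H2-Ea term (limma adjusted p = 0.037). Col8a2 fell by 1.27 on the log2 scale (SE 0.22, limma adjusted p = 0.0050), and its call was lost with the H2-Ea term (limma adjusted p = 0.052). The ratio of Col8a1 to Col8a2 was 5.72, 3.91 and 3.40 in MOD and 0.351, 0.354 and 0.417 in CON, with an exact permutation p of 0.1, the smallest possible, and an adjusted p of 0.27 over 8 ratios. Both genes are low, and Col8a2 met the filter on low values through CON.

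The transmembrane collagens differed as well. Col13a1 (ENSMUSG00000058806), found at cell adhesion sites and at the neuromuscular junction, stood at 4.43, 3.15 and 13.9 TPM in MOD and at 1.28, 1.10 and 2.34 TPM in CON. The groups did not overlap, with MOD 3 well above the rest, and Col13a1 rose (log2 difference 1.47, SE 0.48, limma adjusted p = 0.042). Its call was lost without MOD 1 (limma adjusted p = 0.072), without each CON library (limma adjusted p = 0.10, 0.098 and 0.053 without CON 1, CON 2 and CON 3), without the filter (limma adjusted p = 0.11) and under the H2-Ea term (limma adjusted p = 0.12). Skeletal muscle markers were higher in the same MOD libraries, with 7 of 9 past the threshold, where 12.5% of all tested genes were higher. Their summed TPM was 18311 to 27969 in MOD and 2605 to 9179 in CON, and their part in the rise of Col13a1 was not tested. Col23a1, an epithelial transmembrane collagen, stood at 3.23, 3.55 and 6.30 TPM in MOD and at 5.31, 8.02 and 10.4 TPM in CON and did not pass (log2 difference -0.73, limma adjusted p = 0.080), although it did without MOD 3 (limma adjusted p = 0.038) and without CON 1 (limma adjusted p = 0.045).

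The other tested members were Col20a1 and Col28a1, a collagen of peripheral nerve. Col20a1 stood at 0.65 to 1.53 TPM in MOD and 0.91 to 1.56 TPM in CON, and Col28a1 at 0.89 to 1.45 TPM in MOD and 1.38 to 1.73 TPM in CON. The 14 collagens that did not meet the filter were no higher than 2.67 TPM in any library. They were Col2a1, Col4a3, Col4a4, Col4a6, Col6a4, Col6a5, Col9a1, Col9a2, Col9a3, Col10a1, Col19a1, Col22a1, Col25a1 and Col26a1, and 4 of them were listed at 0 in at least 1 library. Without the filter, where all 43 were tested, none of the 14 was called.

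**Figure D4:**
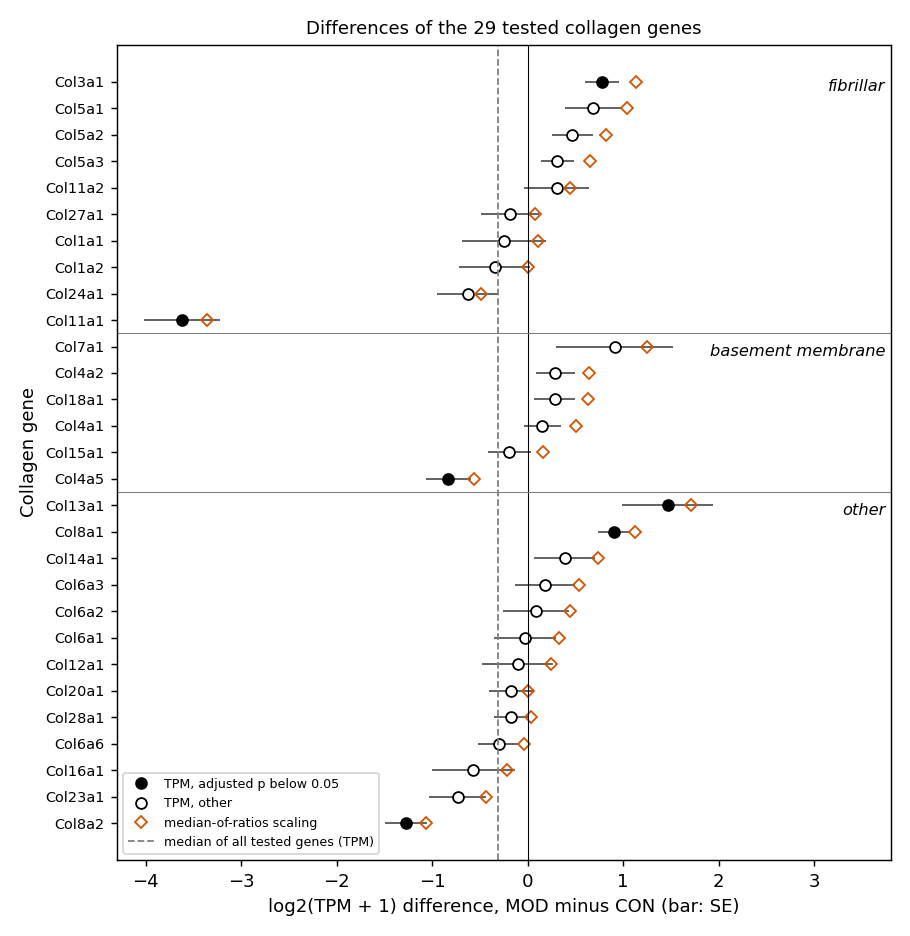
Log2(TPM + 1) difference between MOD and CON for the 29 tested collagen genes by class, circles with SE bars for TPM (filled where the limma adjusted p was below 0.05) and diamonds for median-of-ratios scaling. The dashed line is the median of all tested genes at -0.31, and diamonds lie to the right of circles for every gene.

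Scaling decided the call for several abundant chains. The median of all tested genes was -0.31 in TPM and 0.00 after median-of-ratios scaling, where 8 collagens were higher and 2 lower, against 20.2% and 18.7% of all tested genes, 38.9% in all. The 8 were Col3a1, Col5a1, Col5a2, Col5a3, Col4a2, Col18a1, Col8a1 and Col13a1, and the 2 were Col11a1 and Col8a2. The 20 most abundant genes held 22.5 to 26.1% of TPM in MOD and 15.2 to 17% in CON.

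The genes that make, bind and sense collagen were described from 6 lists of 88 genes. Of these, 84 were tested, and 21 rose and 14 fell, where 12.5% and 36.1% of all tested genes did so. These counts moved to 37 and 7 with median-of-ratios scaling and to 4 and 10 with the H2-Ea term, and without MOD 1 to 12 and 7. The median difference over the 84 genes was 0.24, beside -0.31 for all tested genes. The shares of all tested genes belong beside each list count below. With median-of-ratios scaling they were 20.2% higher and 18.7% lower. Of the genes named below, P4ha2, Plod1, Ppib, Lox, Loxl1, Pcolce, Aspn, Podn, Mrc1, Itgb1, Lamc1, Lama5, Agrn and Tgfbr1 lost their calls with the H2-Ea term (limma adjusted p = 0.056 to 0.51). Among 23 tested genes for hydroxylation, folding and secretion of procollagen, 6 rose and 2 fell. P4ha3 and P4ha2, catalytic subunits of the prolyl hydroxylase that stabilises the triple helix, rose, P4ha3 to 3.31 ± 0.76 TPM in MOD against 0.207 ± 0.14 TPM in CON (SD, n = 3 per group; log2 difference 1.83, limma adjusted p = 0.0016), and P4ha2 to 32.6 ± 8.35 TPM in MOD against 13.4 ± 3.42 TPM in CON. P4ha3 met the filter on low values through MOD. Plod1, a lysyl hydroxylase, rose to 39.6 ± 5.42 TPM in MOD against 21.6 ± 4.48 TPM in CON. Of the other lysyl hydroxylases, Plod2 fell to 3.26 TPM in MOD against 6.23 TPM in CON (log2 difference -0.74, limma adjusted p = 0.030), and Plod3 did not pass. The call of Plod2 was lost with median-of-ratios scaling (limma adjusted p = 0.12). Tmem38b, an ion channel of the endoplasmic reticulum, rose to 28.6 ± 4.66 TPM in MOD against 12.4 ± 3.42 TPM in CON. Ppib, a prolyl isomerase and the most abundant of the list over all libraries, fell to 332 ± 38.2 TPM in MOD against 448 ± 21.5 TPM in CON, a log2 difference of -0.43 that became -0.08 with median-of-ratios scaling. Its call was lost on leaving out any single library other than MOD 3 (limma adjusted p = 0.0591 to 0.106).

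Of 11 tested genes for propeptide removal and cross-linking, 4 rose and 0 fell. Lox stood at 41.0, 41.4 and 53.6 TPM in MOD and at 17.96, 29.3 and 12.5 TPM in CON. Loxl1 stood at 61.4, 56.7 and 56.8 TPM in MOD and at 25.7, 40.4 and 18.04 TPM in CON. Loxl3 stood at 6.81, 6.41 and 5.30 TPM in MOD and at 2.16, 2.17 and 2.83 TPM in CON. These lysyl oxidases, which cross-link collagen and elastin, rose by 1.22, 1.10 and 1.08 on the log2 scale (limma adjusted p = 0.015, 0.016 and 0.0037) with no overlap between groups. With the H2-Ea term Loxl3 kept its call (limma adjusted p = 0.030), while Lox and Loxl1 did not (limma adjusted p = 0.14 for each). Loxl1 also lost its call without MOD 1 (limma adjusted p = 0.057). Pcolce, which enhances removal of the C-propeptide, rose to 172 ± 4.65 TPM in MOD against 125.8 ± 26 TPM in CON (limma adjusted p = 0.047), and lost its call on leaving out any single library other than CON 2 (limma adjusted p = 0.106 to 0.134).

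Of 12 fibril-binding proteoglycans and glycoproteins, 2 rose and 0 fell. They were Aspn, asporin, at 87.3 ± 18.9 TPM in MOD and 32.3 ± 15.1 TPM in CON, and Podn, podocan, at 22.5 ± 3.94 TPM in MOD and 9.06 ± 2.4 TPM in CON. The call of Aspn was lost without MOD 1 and without MOD 2 (limma adjusted p = 0.070 and 0.055). Decorin (Dcn), the most abundant, stood at 1032, 1141 and 960 TPM in MOD and at 953, 1132 and 546 TPM in CON and did not pass (log2 difference 0.31, limma adjusted p = 0.37).

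Of 11 tested collagen receptors and uptake genes, 6 rose and 3 fell. Lair1, an inhibitory collagen receptor of leukocytes, stood at 6.13, 6.28 and 6.15 TPM in MOD and at 0.81, 1.66 and 0.71 TPM in CON (log2 difference 1.83, limma adjusted p = 0.0016). It met the filter on low values through MOD. Mrc1, the macrophage mannose receptor, rose to 82.7 ± 19.8 TPM in MOD against 30.1 ± 14 TPM in CON. All 8 myeloid markers rose in these libraries, with a summed TPM of 4390 to 6663 in MOD and 272 to 993 in CON. Ddr1, a collagen-activated tyrosine kinase of epithelia, fell to 20.1 ± 2.63 TPM in MOD against 48.8 ± 3.78 TPM in CON, and Adgrg1, an adhesion receptor that binds type III collagen, fell to 24.3 ± 3.13 TPM in MOD against 74.7 ± 14.9 TPM in CON. Itgb1, the beta chain of the collagen-binding integrins and the most abundant of the list, rose to 164 ± 11 TPM in MOD against 121 ± 17.8 TPM in CON (limma adjusted p = 0.038), a call lost on leaving out any single library other than CON 2 (limma adjusted p = 0.0656 to 0.121).

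Of 14 tested laminins and other basement membrane proteins, 3 rose and 5 fell in TPM, and 4 were higher and 2 lower with median-of-ratios scaling. Among all tested genes 12.5% rose and 36.1% fell in TPM. Lamc1, a chain of most laminins, rose to 130.3 ± 23.4 TPM in MOD against 81.7 ± 15.4 TPM in CON, a call lost without MOD 2, MOD 3, CON 1 or CON 3 (limma adjusted p = 0.0572 to 0.0755). Lamc3 (log2 difference -1.52), Lama5 (-1.23) and Agrn, agrin (-0.97), fell, and the calls of Lama5 and Agrn were lost with median-of-ratios scaling and quantile normalization. Lama5 lost its call on leaving out any single library other than MOD 3 (limma adjusted p = 0.0569 to 0.119), and Agrn without MOD 1 or MOD 2 (limma adjusted p = 0.061 and 0.054). Of 13 genes of TGF-beta signalling, a main inducer of fibrillar collagen genes, 0 rose and 4 fell in TPM, while 5 were higher and 3 lower with median-of-ratios scaling. Smad2 and Smad4, which carry the signal, stood at 15.5 ± 1.49 and 21.8 ± 1.09 TPM in MOD and at 29.6 ± 3.15 and 37.1 ± 3.6 TPM in CON. Smad7, its feedback inhibitor and a target of the pathway, stood at 3.35 ± 0.709 TPM in MOD and 9.44 ± 2.51 TPM in CON (log2 difference -1.25, limma adjusted p = 0.0065). Tgfbr1 fell to 8.74 ± 0.846 TPM in MOD against 12.9 ± 2.18 TPM in CON, a call lost on leaving out any single library other than CON 3 (limma adjusted p = 0.0615 to 0.139), and the more abundant Tgfbr2 did not pass (46.4 ± 6.08 TPM in MOD and 43.5 ± 21.2 TPM in CON).

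**Figure D5:**
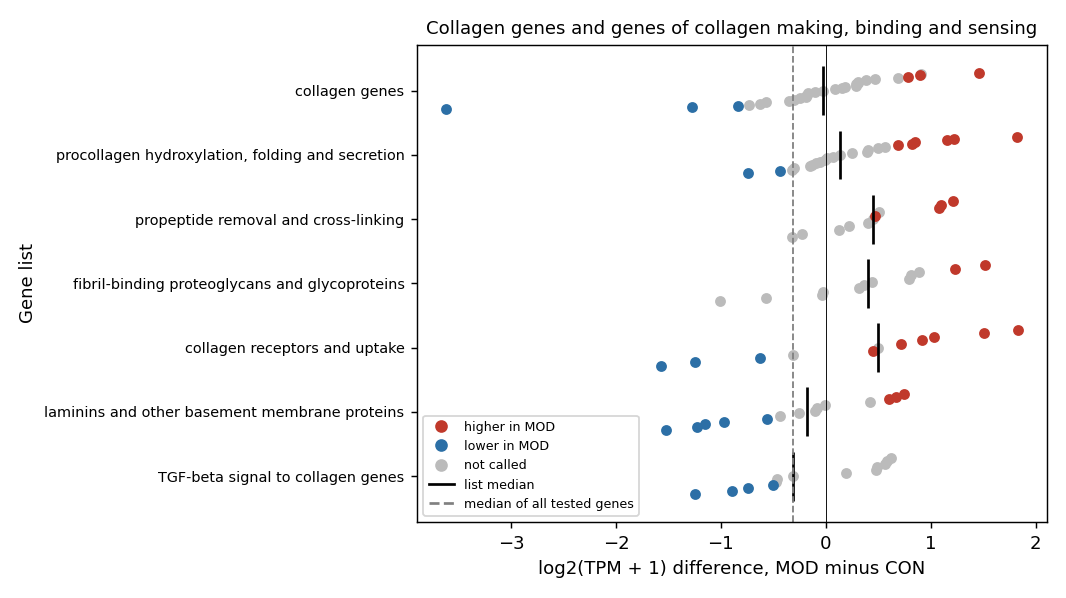
Log2(TPM + 1) difference between MOD and CON for the 29 tested collagen genes and for 84 tested genes in 6 lists, each point a gene, black bars at list medians and a dashed line at -0.31, the median of all tested genes. Cross-linking genes called past the threshold lie above 0, and the 4 called TGF-beta genes lie below it, in TPM. Among all tested genes 12.5% were called higher and 36.1% lower in TPM. With median-of-ratios scaling 5 TGF-beta genes were higher and 3 lower.

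Of 14 tested fibroblast markers, 3 rose (Vim, Fbln2 and Clec3b) and 0 fell in TPM, while 8 were higher with median-of-ratios scaling and 1 with the H2-Ea term. Under that term Vim kept its call (limma adjusted p = 0.044), and Fbln2 and Clec3b lost theirs (limma adjusted p = 0.068 and 0.48). Vim, vimentin, which leukocytes and vessel cells also express in quantity, stood at 1438 to 1496 TPM in MOD and 503 to 908 TPM in CON. Pdgfra, a defining receptor of dermal fibroblasts, stood at 28.9, 28.2 and 23.7 TPM in MOD and at 20.7, 38.8 and 13.5 TPM in CON, and the groups overlapped.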

How the data were processed

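Skin RNA of 3 MOD and 3 CON libraries was sequenced. Per the labels' protocols, RNA was extracted with TRIzol, treated with DNase I and made into libraries with a SMARTER kit. The authors deposited TPM values per gene, and the submitters' processing notes name GRCm39. No aligner, annotation or quantification program is named in the labels or headers. TPM keeps no sequencing depth, so depth is unknown and no counting interval or floor is given. CON 1, CON 2 and CON 3 are numbered as in the titles. The deposited columns of these libraries are headed CON1, CON3 and CON4, in that order.

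From these values, log2(TPM + 1) was fitted in limma 3.58.1 under R 4.3.3 (lmFit and eBayes with trend, Benjamini-Hochberg adjustment over 15323 genes, all tests two-sided, threshold 0.05). Genes entered with 1 TPM or more in 3 or more of 6 libraries. The log scale understates the change of low genes. The procedure was tested on simulated data. Ratios between chains were tested by exact permutation. The members and all gene lists were chosen with earlier results of these data known. Collagens averaging 10 TPM or more in either group were given in every library, the others by range or call, and of each list up to 4 called genes with the largest change and the most abundant gene, except 1 gene that is not reported here. Acan, Sox9, Matn1, Matn3, Hapln1, Comp, Cnmd, Twist2, Thy1, Vim, Fbln2, Clec3b and Pdgfra were named after their values were seen. So were Pdgfrb, Prrx1, Fbln1, S100a4, Dpp4, Pi16, Fap, Mfap5, Krt71, Krt25, Krt27, Krt31, Krt35, Shh, Plod2, Plod3, Loxl2 and Loxl4. The same holds for the single low collagens that were not called. Alternatives were 2 other pseudocounts, 2 other filters, 3 other scalings, no trend, leaving out each library, the replicate number as a block and a term for the H2-Ea split.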

Additional observations from a re-analysis of the deposited data

How the results depend on the processing

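Scaling and the split within CON moved the most counts of called genes, and the cause was not tested. Leaving out MOD 3 took the collagens called lower from 3 to 8. The counts of all tested genes called higher and lower (1914 and 5538) became 3097 and 2868 with median-of-ratios scaling, 2818 and 3177 with quantile normalization, and 667 and 2747 with the H2-Ea term, and the lower calls were 3559 to 5487 on leaving out 1 library. Higher calls made up 25.7% of all calls in TPM, but 51.9% under median-of-ratios scaling, 47% with quantile normalization and 35.2% without the 20 most abundant genes. With a mean of at least 5 TPM only 19 collagens were tested. Col8a1, Col13a1, Col8a2 and Col4a5 were not among them, and Col3a1 and Col11a1 kept their calls. Collagens called higher numbered 8 with median-of-ratios scaling, 6 with quantile normalization, and 1 each with no filter, with a mean of at least 5 TPM and with the H2-Ea term. Collagens called lower numbered 1 with a mean of at least 5 TPM, 1 with the H2-Ea term and 2 to 8 on leaving out 1 library. Pathway genes called higher numbered 37 with median-of-ratios scaling, 35 with quantile normalization, 12 with no filter, 4 with the H2-Ea term and 12 to 27 on leaving out 1 library. Those called lower numbered 7 with median-of-ratios scaling, 7 with quantile normalization, 8 without the 20 most abundant genes, 9 with no filter and 7 to 16 on leaving out 1 library. The log2 difference of summed basement membrane collagens was 0.51 with median-of-ratios scaling. Signs turned for genes that were not called. With median-of-ratios scaling the log2 difference was 0.11 for Col1a1, 0.0085 for Col1a2, 0.077 for Col27a1, 0.16 for Col15a1, 0.24 for Col12a1, 0.33 for Col6a1 and 0.031 for Col28a1. With quantile normalization it was 0.0056 for Col27a1, 0.036 for Col15a1, 0.18 for Col12a1 and 0.097 for Col6a1, and without the 20 most abundant genes 0.045 for Col12a1 and 0.13 for Col6a1. With the H2-Ea term it was -0.19 for Col4a1, -0.080 for Col4a2, -0.26 for Col14a1, 0.017 for Col20a1, -0.44 for Col6a2, -0.23 for Col6a3, -0.12 for Dcn and -0.52 for Tgfbr2. On leaving out 1 library it ranged over -0.76 to 0.034 for Col1a1, -0.011 to 0.33 for Col4a1, -0.49 to 0.25 for Col12a1, -0.32 to 0.25 for Col6a1, -0.24 to 0.35 for Col6a2, -0.11 to 0.38 for Col6a3 and -0.15 to 0.55 for Tgfbr2. Deviations from the group mean correlated weakly between same-numbered libraries (0.00462, 0.0685 and 0.0656). These values cannot settle whether the replicate numbers mark a pairing. With the replicate number as a block, 1914 genes were higher and 5343 lower, with 3 collagens each way, Col23a1 in place of Col4a5. Depth is unknown in TPM, which limits what can be said of the collagens under 1 TPM.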
